A study of Mus musculus with 45 samples.

Results

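The genes described here are 8 zinc-handling genes of the mouse: the metallothioneins Mt1 and Mt2, their zinc-sensing regulator Mtf1, the zinc exporter Slc30a1 and the zinc importers Slc39a1, Slc39a6, Slc39a10 and Slc39a14. They were taken by symbol from the 28454 genes of a count table, and all 8 passed the filter on low counts in each of the fits below. The table holds 45 messenger RNA libraries of mouse mammary tumour cell lines, in 15 groups of 3 cultures. The MYAZ lines (MYAZ16.1e, MYAZ12.3i and MYAZ6.6g, with _ for the point in the labels) came from mammary tumours of MMTV-cMYC mice, in which the MMTV promoter drives MYC in mammary epithelium of the FVB/NJ strain. Myc310 is 1 line from such a mouse with several tumours. LM1, LM2 and LM3 grew out of lungs after Myc310 cells had been injected into the fat pad, and LM1-LM, LM2-LM and LM3-LM came from lungs after the injection of LM1, so all lung lines share 1 founder. A further line is MYAZ12.3i with NDI1, a yeast NADH dehydrogenase, for which no vector control is among these libraries. All 10 lines without NDI1 and the NDI1 line were measured in control medium, and MYAZ16.1e, Myc310, LM1 and LM1-LM were also measured after 6 h without cysteine and cystine. Each well received 250000 cells, 24 h before the change of medium, and the culture medium contained serum, insulin, hydrocortisone and EGF. The series text speaks of technical replicates, so p-values between the 3 cultures of a group measure only the spread between those cultures.

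Metallothioneins are very small proteins whose many cysteines hold zinc and copper through their sulphur atoms, and so buffer both metals. MTF1 is a transcription factor that takes up zinc in its zinc fingers when free zinc rises, binds metal response elements before its target genes, and turns on the metallothioneins and Slc30a1. SLC30 proteins (ZnT) move zinc out of the cytosol, Slc30a1 across the plasma membrane, whereas SLC39 proteins (ZIP) bring it in. Slc39a10 (ZIP10) is known as an importer whose messenger RNA is held down by MTF1 when zinc is plentiful. Slc39a14 (ZIP14) carries zinc, iron and manganese, Slc39a6 (ZIP6) is a partner of ZIP10 first described as an oestrogen-regulated gene of breast cancer cells, and Slc39a1 (ZIP1) is a broadly expressed importer.

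The coding sequences of both metallothioneins are shown because cysteine, the amino acid withheld from the cells, makes up so much of them. They are from GENCODE M21 transcripts on GRCm38, and capitals mark the cysteine codons.
Mt1: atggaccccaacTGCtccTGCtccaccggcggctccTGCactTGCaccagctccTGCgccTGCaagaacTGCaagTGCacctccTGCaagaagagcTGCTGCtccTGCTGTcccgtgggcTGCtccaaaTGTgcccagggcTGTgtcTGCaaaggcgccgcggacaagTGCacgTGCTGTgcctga
Mt2: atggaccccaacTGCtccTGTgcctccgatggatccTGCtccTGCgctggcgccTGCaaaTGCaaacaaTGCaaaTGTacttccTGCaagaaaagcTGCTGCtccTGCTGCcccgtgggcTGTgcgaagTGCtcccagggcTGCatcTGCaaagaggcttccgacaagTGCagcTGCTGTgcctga
Each reading frame has 61 codons before its stop, of which 20 (32.8%) encode cysteine. Of 21505 mouse genes compared, 48 had a higher share of cysteine codons. The other members lie far below, from 1.05% in Slc39a6 to 3.58% in Slc30a1. The coding sequences are identical at 148 of 186 bases (79.6%), and all 20 cysteine codons stand at the same place in both. Their main transcripts have no identical run longer than 20 bases, so a read of 100 bases from one cannot match the other exactly. Mt2 (ENSMUSG00000031762, chr8:94172664-94173568, plus strand) lies 5513 bases before Mt1 (ENSMUSG00000031765, chr8:94179082-94180327, plus strand).

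Sequence before the start is shown for the members that MTF1 is known to turn on. The windows are the 250 bases before the RefSeq start on GRCm38.p6, all on the plus strand, at chr8:94178839-94179088 for Mt1, chr8:94172368-94172617 for Mt2 and chr1:191906531-191906780 for Slc30a1. Capitals mark the metal response element core, searched as TGCACNC or TGCGCNC on both strands.
Mt1: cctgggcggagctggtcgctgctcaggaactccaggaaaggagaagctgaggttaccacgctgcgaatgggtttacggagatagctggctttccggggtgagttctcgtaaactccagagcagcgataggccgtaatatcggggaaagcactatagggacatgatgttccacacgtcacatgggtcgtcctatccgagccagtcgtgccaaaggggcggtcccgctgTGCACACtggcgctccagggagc
Mt2: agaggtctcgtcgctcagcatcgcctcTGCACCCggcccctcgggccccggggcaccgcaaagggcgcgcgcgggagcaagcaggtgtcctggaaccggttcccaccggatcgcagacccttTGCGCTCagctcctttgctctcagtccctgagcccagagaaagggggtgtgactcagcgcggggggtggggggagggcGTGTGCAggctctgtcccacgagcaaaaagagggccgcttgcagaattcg
Slc30a1: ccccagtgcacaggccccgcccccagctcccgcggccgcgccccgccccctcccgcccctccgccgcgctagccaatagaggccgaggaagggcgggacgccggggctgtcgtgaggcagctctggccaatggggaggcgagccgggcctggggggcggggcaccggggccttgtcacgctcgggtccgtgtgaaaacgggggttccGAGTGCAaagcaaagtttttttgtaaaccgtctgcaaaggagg
The window of Mt2 holds 3 cores, and those of Mt1 and Slc30a1 hold 1 each. Among 32851 RefSeq windows of 250 bases, 21.4% hold at least 1 core and 1.26% hold at least 3. With the 50 bases after the start included, the counts became 3 for Mt1, 4 for Mt2 and 2 for Slc30a1, against shares of 1.97% of windows with at least 3, 0.517% with at least 4 and 7.11% with at least 2. No core was found in the windows of Mtf1, Slc39a1 and the 2 listed starts of Slc39a10, and Slc39a6 and Slc39a14 have no entry in the table. The starts are annotations: the GENCODE gene start is 7 bases before the RefSeq start for Mt1, 14 bases before it for Slc30a1, 20 bases before it for Slc39a1 and 46 bases after it for Mt2. For Mtf1 it is 445 bases before it, so the window searched for Mtf1 lies inside the GENCODE gene. For Slc39a10 the 2 RefSeq starts are 32924 bases before the GENCODE start and 39234 bases after it, and the bases next to that GENCODE start were not searched. Sequence further than 50 bases after a RefSeq start was not searched for any member, and the starts used by these cells were not measured. The counts of cores therefore hold for these windows only, and a low count does not mean that a gene has few cores nearby.

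**Figure D1:**
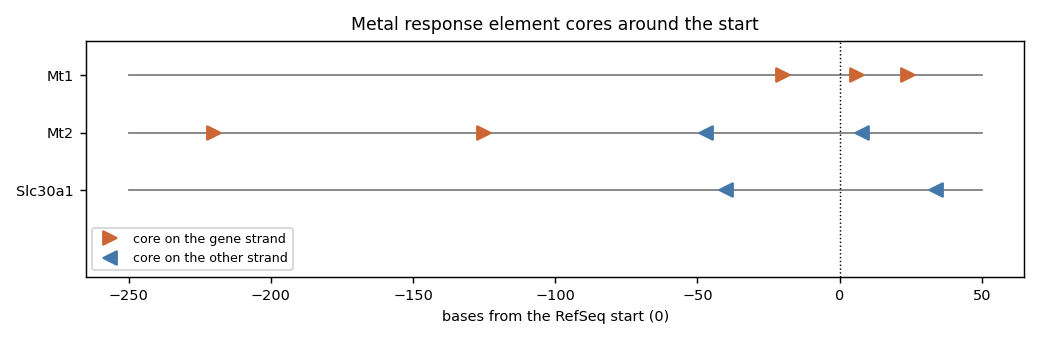
Position of metal response element cores between 250 bases before and 50 bases after the RefSeq start of Mt1, Mt2 and Slc30a1 (x axis, bases from the start; arrows give the strand). The left ends of the 3 cores of Mt1 lie from 23 bases before the start to 21 bases after it, those of the 4 cores of Mt2 from 223 bases before it to 5 bases after it, and Slc30a1 has 2 cores, with 1 on each side.

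Depth and identity of the libraries set the frame for these values. Counts on genes ranged from 19517859 to 29019988 per library, with a median of 22899900. Levels are given as CPM, the count of a gene relative to the total of its library, scaled with TMM over all libraries. Among epithelial markers, Krt8 lay between 216.9 and 1731 CPM and Krt18 between 94.0 and 550.0 CPM in all libraries, whereas the adhesion genes that define epithelium were nearly absent: Epcam did not exceed 0.802 CPM, Cdh1 did not exceed 0.284 CPM, and Cldn7 was at 0 in 42 libraries. The summed level of 10 fibroblast markers lay between 1.74 and 223.4 CPM, that of the 8 listed leukocyte markers between 3.31 and 19.9 CPM, and those of endothelial and alveolar markers did not exceed 7.24 and 6.72 CPM. In such bulk libraries, fewer cells of a type and less RNA per cell cannot be told apart.

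The first question is what happened to these genes when cells lost external cysteine and cystine for 6 h. Mt1, Mt2, Slc30a1 and Slc39a14 rose in all 4 lines, and Slc39a10 fell in all 4. Slc30a1 rose between 2.41-fold and 2.71-fold, and Slc39a10 fell between 2.07-fold in MYAZ16.1e and 6.94-fold in LM1-LM. The metallothioneins rose by 1.32-fold (Mt1) and 1.44-fold (Mt2) in MYAZ16.1e and by 2.41-fold to 3.38-fold in Myc310, LM1 and LM1-LM. Mtf1 itself passed the test in LM1 (1.28-fold) and LM1-LM (1.33-fold) and not in the other 2 lines. These changes were tested with edgeR's quasi-likelihood test over 13400 genes, with a Benjamini-Hochberg adjusted p below 0.05 as the call. In MYAZ16.1e, 4 members were called higher and 1 lower, where 26.6% of all genes were called higher and 27.1% lower. In Myc310 the counts were 4 and 3, against 32.8% and 33.9% of genes. LM1 had 5 and 2, against 35.8% and 35.3%, and LM1-LM also had 5 and 2, against 36.5% and 35.9%. A call is therefore common among all genes here, and 19.3% were called higher in all 4 lines and 19% lower in all 4. Cultures of the media that did not overlap were also common, with 29.7% of genes higher and 29.2% lower in MYAZ16.1e, 34.9% and 34.5% for Myc310, 34.9% and 38.5% for LM1, and 35.3% and 38.7% for LM1-LM. Rises of over 2-fold were rarer, at 3.78% of genes in MYAZ16.1e, 6.93% for Myc310, 9.06% for LM1 and 9.76% for LM1-LM, and falls of over 2-fold were found for 0.821%, 5.44%, 9.21% and 10.3% of genes. Slc30a1 had such a rise in all 4 lines, as did 2.58% of genes, and a fall of over 2-fold in all 4 lines, as in Slc39a10, was found for 0.403% of genes.

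**Figure D2:**
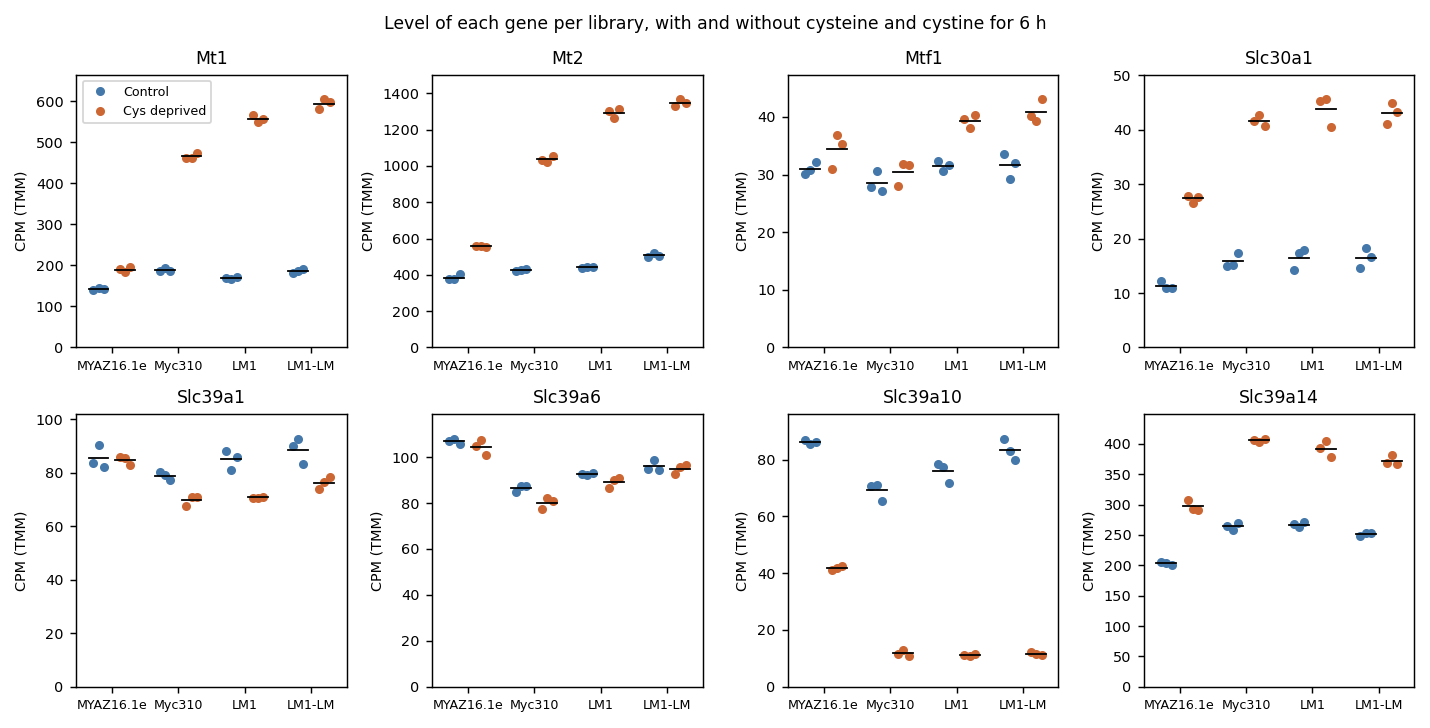
CPM of the 8 members in each library of 4 lines (x axis) in control medium (blue) and after 6 h without cysteine and cystine (orange); points are cultures and bars are means of 3. Slc39a10 lies between 10.8 and 13.0 CPM in the deprived cultures of Myc310, LM1 and LM1-LM, whereas in MYAZ16.1e it lies between 41.0 and 42.6 CPM.

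Mt1, the first of the metal buffers, was at 140.5, 144.9 and 143.1 CPM in the control cultures of MYAZ16.1e and at 190.3, 183.1 and 195.9 CPM in the deprived ones. In Myc310 the control cultures held 186.6, 193.4 and 185.4 CPM and the deprived ones 461.3, 462.5 and 473.5 CPM. In LM1 the values went from 168.5, 167.7 and 171.6 CPM to 567.6, 548.9 and 556.4 CPM. The control and deprived cultures did not overlap in these lines, and the deprived MYAZ16.1e cultures overlapped with those of Myc310 in control medium. In LM1-LM, Mt1 was at 182.2, 186.9 and 192.0 CPM in control medium and at 580.1, 604.6 and 597.3 CPM without cysteine and cystine. The log2 fold changes of Mt1 were 0.40 ± 0.03 (SE, adjusted p = 2.53e-13, edgeR) in MYAZ16.1e, 1.29 ± 0.03 (adjusted p = 7.70e-27) for Myc310, 1.76 ± 0.03 (adjusted p = 2.66e-30) for LM1 and 1.70 ± 0.03 (adjusted p = 3.93e-30) for LM1-LM. By size, the rise in MYAZ16.1e was above that of 83.2% of all genes tested, and the rise in LM1 above that of 96.0%.

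Mt2, its neighbour and close relative, gave the higher level of the pair throughout. In MYAZ16.1e it was at 375.9, 375.2 and 401.8 CPM in control medium and at 557.8, 559.9 and 551.0 CPM after deprivation. In Myc310 it went from 419.5, 424.8 and 432.0 CPM to 1033, 1019 and 1057 CPM. In LM1 it went from 436.0, 441.6 and 443.9 CPM to 1302, 1264 and 1313 CPM. No control culture reached a deprived culture of its own line. LM1-LM had 500.2, 519.6 and 503.2 CPM in control medium and the highest deprived values, at 1330, 1366 and 1347 CPM. The log2 fold changes of Mt2 were 0.53 ± 0.03 (SE, adjusted p = 3.62e-17, edgeR), 1.27 ± 0.03 (adjusted p = 2.29e-27), 1.59 ± 0.03 (adjusted p = 5.98e-30) and 1.45 ± 0.03 (adjusted p = 4.67e-29) in the same order of lines. Per kilobase of their main transcripts (549 bases for Mt1 and 511 for Mt2), the level of Mt2 was 2.39 to 3.56 times that of Mt1 over the 15 groups. Counted together, both genes took 0.0527% to 0.0553% of all counts in the control cultures of MYAZ16.1e and 0.177% to 0.182% in the deprived cultures of LM1-LM.

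The balance between the pair was looked at after the values had been seen, and it is given without a test. In LM1 there were 2.59 to 2.63 counts of Mt2 per count of Mt1 in control medium and 2.29 to 2.36 after deprivation. In LM1-LM the ratio went from 2.62 to 2.78 down to 2.25 to 2.29. In MYAZ16.1e it lay at 2.59 to 2.81 in control medium and at 2.81 to 3.06 after deprivation, and in Myc310 at 2.20 to 2.33 and 2.20 to 2.24. The cultures of LM1 and LM1-LM thus separated by medium with the lower ratio in deprivation, and those of Myc310 overlapped. In MYAZ16.1e the ratio was higher in deprivation, but the 2 media nearly touched. There the highest control culture was at 2.808 and the lowest deprived culture at 2.814.

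Mtf1, the zinc sensor, was expressed at a low level in all groups. Its group means lay between 26.7 and 33.6 CPM in control medium and reached 40.8 CPM in deprived LM1-LM. In LM1 it rose from 31.5 ± 0.81 CPM (SD, n = 3) to 39.4 ± 1.24 CPM, a log2 fold change of 0.36 ± 0.06 (SE, adjusted p = 9.29e-06, edgeR). In LM1-LM it rose from 31.6 ± 2.23 to 40.8 ± 1.99 CPM, by 0.41 ± 0.06 on the log2 scale (adjusted p = 7.77e-07). The cultures did not overlap in these lines. In MYAZ16.1e the log2 difference was 0.14 ± 0.06 (adjusted p = 0.0588) and in Myc310 0.082 ± 0.065 (adjusted p = 0.272), with overlapping cultures in both. Without deprived culture 1 of MYAZ16.1e, the difference in that line was 0.20 and passed the test (adjusted p = 0.00904), as it did with at least 10 counts required in every library (0.14, adjusted p = 0.0463). Messenger RNA gives no measure of how much zinc the protein had bound.

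Slc30a1, which moves zinc out across the plasma membrane, gave nearly equal log2 fold changes in all 4 lines. In MYAZ16.1e it was at 12.2, 10.9 and 10.9 CPM in control medium and at 27.9, 26.5 and 27.7 CPM after deprivation. In Myc310 the values were 14.95, 15.18 and 17.4 CPM against 41.5, 42.7 and 40.7 CPM. LM1 had 14.2, 17.4 and 17.9 CPM in control medium and 45.2, 45.6 and 40.5 CPM after deprivation. Deprived and control cultures stood far apart, with no overlap in any of the 4 lines. LM1-LM had 14.5, 18.2 and 16.6 CPM against 41.0, 44.9 and 43.2 CPM. The log2 fold changes of Slc30a1 were 1.27 ± 0.08 (SE, adjusted p = 4.89e-14, edgeR), 1.38 ± 0.07 (adjusted p = 2.38e-16), 1.44 ± 0.08 (adjusted p = 6.84e-17) and 1.42 ± 0.07 (adjusted p = 5.84e-17), with the lines in the order just given. In MYAZ16.1e this rise was above that of 96.8% of all genes, whereas in LM1-LM, where more genes changed strongly, it was above 94.0%.

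Slc39a10, the importer, went the other way. In MYAZ16.1e it fell from 87.0, 85.4 and 86.3 CPM to 41.0, 42.0 and 42.6 CPM. In Myc310 it fell from 70.7, 71.1 and 65.6 CPM to 11.6, 13.0 and 10.9 CPM. In LM1 it fell from 78.5, 77.5 and 71.8 CPM to 11.1, 10.8 and 11.4 CPM. The deprived cultures of these last lines lay at one level, well under that of deprived MYAZ16.1e. In LM1-LM it fell from 87.4, 83.1 and 79.7 CPM to 12.2, 11.7 and 11.1 CPM. The log2 fold changes of Slc39a10 were -1.05 ± 0.05 (SE, adjusted p = 3.98e-18, edgeR) in MYAZ16.1e, -2.56 ± 0.06 (adjusted p = 3.54e-26) for Myc310, -2.73 ± 0.06 (adjusted p = 5.21e-27) for LM1 and -2.80 ± 0.06 (adjusted p = 1.32e-27) for LM1-LM. Fewer than 2 in 100 genes had a lower log2 fold change in any of these lines: 1.5% in MYAZ16.1e, 0.545% for Myc310, 0.851% for LM1 and 1.04% for LM1-LM.

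Slc39a14, an importer of zinc, iron and manganese, rose in all 4 lines to a like extent. In MYAZ16.1e it went from 205.8, 203.4 and 200.5 CPM to 308.0, 291.9 and 290.6 CPM. In Myc310 it went from 264.4, 258.8 and 270.4 CPM to 406.9, 403.6 and 408.4 CPM. In LM1 it went from 267.4, 263.1 and 270.6 CPM to 392.7, 404.3 and 378.7 CPM. The cultures of the 2 media did not overlap. In LM1-LM the levels were 248.2, 253.3 and 253.8 CPM against 368.2, 381.2 and 367.2 CPM. The log2 fold changes of Slc39a14 were 0.54, 0.61, 0.59 and 0.60, each ± 0.03 (SE), with adjusted p-values (edgeR) of 7.67e-17, 7.96e-19, 1.16e-18 and 5.90e-19.

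The remaining importers moved little. Slc39a1 did not pass the test in MYAZ16.1e, with 85.5 ± 4.32 CPM (SD, n = 3) in control medium and 84.9 ± 1.65 CPM after deprivation, and it fell in the other 3 lines, by 0.19 ± 0.04 on the log2 scale in Myc310 (SE, adjusted p = 1.41e-04, edgeR), by 0.23 ± 0.04 for LM1 (adjusted p = 1.32e-05) and by 0.18 ± 0.04 for LM1-LM (adjusted p = 2.26e-04). Of the 100-base stretches of Slc39a1 transcripts, 14.8% also occur in the pseudogene Slc39a1-ps. Some reads may therefore fit both, and the effect on the counts of Slc39a1 was not measured. Slc39a6 fell in Myc310, from 86.6 ± 1.59 to 80.2 ± 2.37 CPM, a log2 fold change of -0.12 ± 0.03 (adjusted p = 0.00144). In MYAZ16.1e its log2 difference was -0.039 ± 0.031 (adjusted p = 0.315), in LM1 -0.023 ± 0.032 (adjusted p = 0.543) and for LM1-LM 0.019 ± 0.032 (adjusted p = 0.601). Its direction in LM1-LM turned under RLE and upper-quartile scaling and under DESeq2, and its fall in LM1 passed the test under upper-quartile scaling (-0.10, adjusted p = 0.00609). In LM1 the deprived cultures of Slc39a6 all lay below the control cultures in CPM, a pattern found for 38.5% of genes in that line, although the test did not call it.

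**Figure D3:**
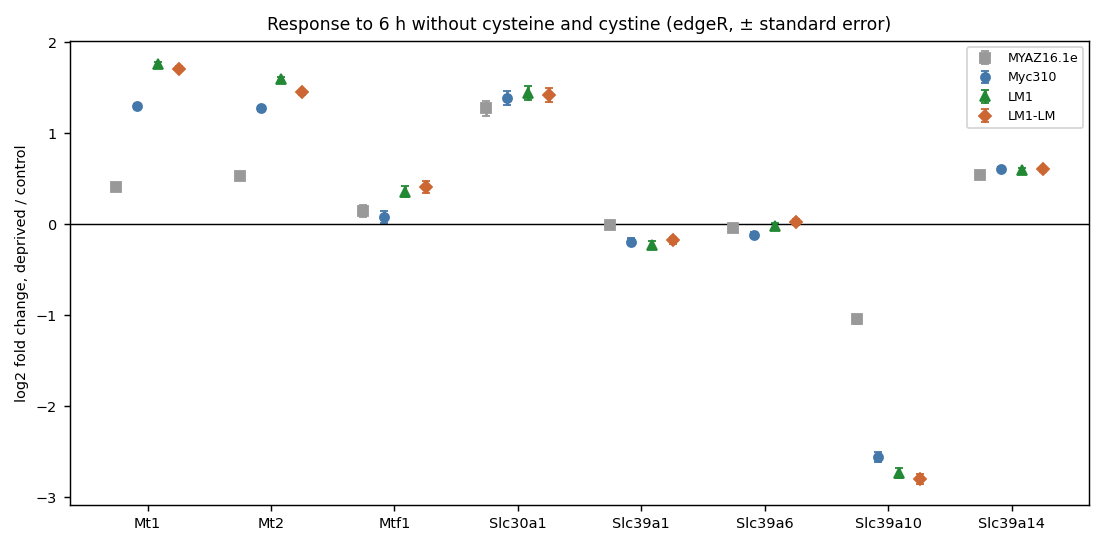
Log2 fold change (y axis, deprived over control, ± SE from edgeR) of each member; the symbol and colour give the line. The symbols of Slc30a1 and Slc39a14 lie close together over the lines, whereas those of Mt1, Mt2 and Slc39a10 leave MYAZ16.1e apart from the other lines.

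Whether a response differed between lines was tested as an interaction, with MYAZ16.1e as the line of reference. Mt1, Mt2 and Slc39a10 responded more strongly in Myc310, LM1 and LM1-LM than in MYAZ16.1e, and the responses of Slc30a1, Slc39a14 and Slc39a6 did not pass this test in Myc310, LM1 or LM1-LM. The difference of log2 fold changes for Mt1 was 0.89 ± 0.04 (SE, adjusted p = 4.28e-17, edgeR) for Myc310, 1.35 ± 0.04 (adjusted p = 5.97e-22) for LM1 and 1.30 ± 0.04 (adjusted p = 1.00e-21) for LM1-LM. For Mt2 it was 0.74, 1.06 and 0.92, each ± 0.04 (adjusted p between 2.05e-20 and 3.87e-16). For Slc39a10 it came to -1.51, -1.69 and -1.75, each ± 0.07 (adjusted p between 2.52e-18 and 7.61e-16). Slc39a1 also differed, by -0.18, -0.21 and -0.16, each ± 0.06 (adjusted p between 0.00242 and 0.0153), although the calls in Myc310 and LM1-LM were lost without control culture 3 of MYAZ16.1e (adjusted p = 0.0546 and 0.0545), without deprived culture 1 of Myc310 (0.0510) and without control culture 2 of LM1-LM (0.0612). For Slc30a1 the differences were 0.11, 0.17 and 0.15, each ± 0.11 (adjusted p between 0.234 and 0.466), and for Slc39a14 0.06, 0.05 and 0.06, each ± 0.04, the values in LM1 and LM1-LM turning sign under upper-quartile scaling, and those in Myc310 and LM1-LM passing the test without deprived culture 1 of MYAZ16.1e (0.095 and 0.087, adjusted p = 0.0427 and 0.0486). Slc39a6 passed the test in Myc310 under upper-quartile scaling (adjusted p = 0.0341). For Mtf1, LM1 gave a difference of 0.21 ± 0.09 (adjusted p = 0.0443), and LM1-LM gave 0.27 ± 0.09 (adjusted p = 0.0115). The call for Mtf1 in LM1 was lost in 12 of 18 alternatives, with adjusted p-values of up to 0.221, and that in LM1-LM was lost without control culture 2 of LM1-LM or deprived culture 1 of MYAZ16.1e (adjusted p = 0.0533 and 0.0544) and under upper-quartile scaling (0.0859). Of the 8 members 4, 5 and 5 were called, where 40.3%, 52.2% and 54.8% of all genes were. Among genes called in Myc310, LM1 and LM1-LM, 49.2%, 51.5% and 51.7% had the higher response than MYAZ16.1e, which became 42%, 41% and 41.6% under upper-quartile scaling. The 3 contrasts share the MYAZ16.1e cultures. MYAZ16.1e and Myc310 each stand for 1 line of their kind here, so a difference between them cannot be told apart from a difference between individual lines.

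The other members of both transporter families were counted in the same fit. Of 7 SLC30 genes with enough counts, Slc30a1 included, 3 were higher and 2 lower in MYAZ16.1e, 3 and 2 in Myc310, and 4 and 3 in both LM1 and LM1-LM, beside the shares of all genes given above (26.6% to 36.5% higher and 27.1% to 35.9% lower). The median log2 fold change of these 7 genes was 0.13, 0.15, 0.23 and 0.26, beside a median of all genes between -0.01 and 0. Slc30a4 (ZnT4), the transporter that loads zinc into secretory vesicles and milk, joined Slc30a1 in rising in all 4 lines. It went from 251.6 ± 3.53 CPM (SD, n = 3) to 317.0 ± 7.81 in MYAZ16.1e and in Myc310 from 206.7 ± 1.31 to 386.0 ± 8.32. In LM1 it went from 202.9 ± 6.77 to 462.6 ± 4.74 CPM, and LM1-LM was alike with 200.4 ± 9.40 and 451.9 ± 2.72 CPM. Over the lines these are log2 fold changes of 0.33, 0.89, 1.23 and 1.21, each ± 0.03 (SE, adjusted p between 7.08e-26 and 2.38e-11, edgeR). Of 9 SLC39 genes with enough counts among 14, 2 were higher and 3 lower in MYAZ16.1e, 1 and 6 in Myc310, 1 and 5 in LM1, and 1 and 4 in LM1-LM, beside the same shares of all genes, with medians of -0.07, -0.15, -0.23 and -0.15. Slc39a14 was thus the only importer called higher in Myc310, LM1 and LM1-LM. Slc39a9, a transporter of the Golgi, was picked out after its values were seen, because it changed sides between lines: its log2 fold change was 0.37 ± 0.05 in MYAZ16.1e (adjusted p = 1.97e-07) and -0.32, -0.56 and -0.61, each ± 0.05, in the other lines. Of the other metallothioneins, Mt3 and Mt4, only Mt4 had enough counts to be tested, and it was not called in any of the 4 lines.

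**Figure D4:**
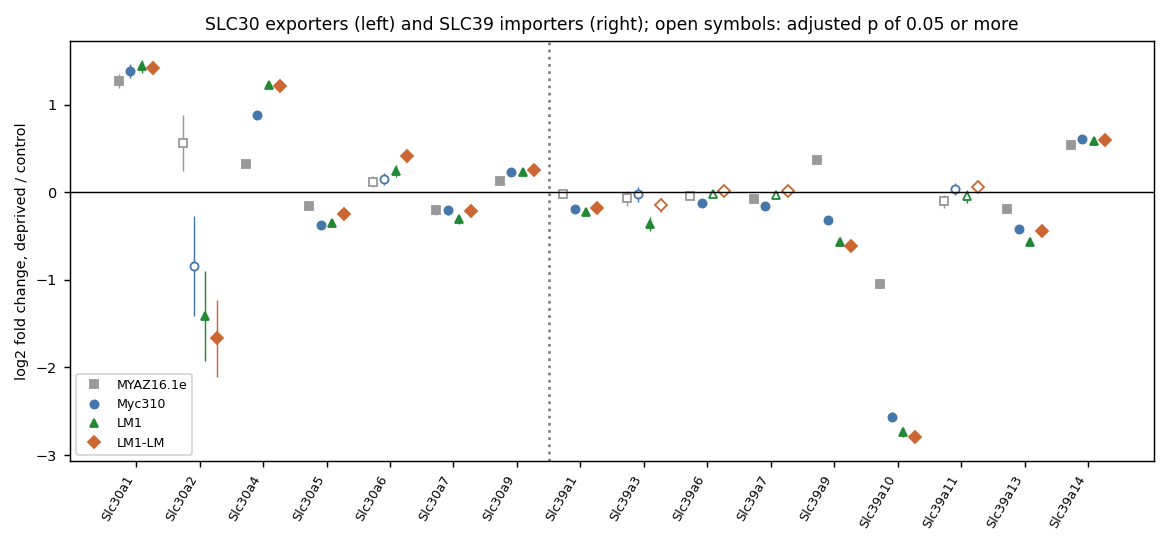
Log2 fold change (y axis, deprived over control, ± SE from edgeR) of 7 SLC30 exporters and 9 SLC39 importers (x axis) in 4 lines; filled symbols passed the test. Slc30a1 and Slc30a4 stand highest among the exporters, and Slc39a10 stands lowest among the importers. Slc30a2 has the widest error bars.

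Metallothioneins bind copper as well, so genes of copper handling were counted too. Of 11 tested, 1 was higher and 4 lower in MYAZ16.1e, 3 and 7 in Myc310, 3 and 6 in LM1, and 3 and 7 in LM1-LM, with median log2 fold changes of 0.02, -0.27, -0.31 and -0.28. Of all genes, 26.6% to 36.5% were called higher and 27.1% to 35.9% lower over these lines, with medians between -0.01 and 0. Steap2 and Steap3, reductases that act on iron and copper, changed in opposite directions. Steap2 rose by 0.53, 1.08, 1.18 and 1.13 on the log2 scale, each ± 0.03 (SE, adjusted p between 9.22e-24 and 1.03e-14, edgeR). Steap3 fell by 0.38 ± 0.06, 1.08 ± 0.07, 1.49 ± 0.07 and 1.77 ± 0.08 (adjusted p between 3.25e-19 and 1.02e-05). In LM1-LM this took Steap3 from 25.9 ± 0.50 CPM (SD, n = 3) to 7.39 ± 0.16 CPM.

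Metallothioneins are also known to answer to glucocorticoids and to oxidants, and the medium holds hydrocortisone, so lists of such genes are given beside them. Of 10 glucocorticoid targets, 6 were higher in each of the 4 lines, and 2, 2, 3 and 3 were lower, with median log2 fold changes of 0.38, 0.51, 1.27 and 1.29. Of 9 genes of metal and thiol stress, 3, 3, 5 and 5 were higher and 4, 5, 4 and 4 lower, with medians of -0.07, -0.16, 0.10 and 0.12. Both lists stand beside 26.6%, 32.8%, 35.8% and 36.5% of all genes called higher and 27.1%, 33.9%, 35.3% and 35.9% called lower, in the same order of lines. The part of these genes' regulators in the change of Mt1 and Mt2 was not tested. The summed fibroblast markers went from 59.3 to 65.2 CPM in control cultures of LM1-LM down to 27.9 to 30.4 CPM in deprived ones, while in MYAZ16.1e they lay at 23.7 to 27.7 and 22.7 to 25.7 CPM. In LM1 the same sum was 15.6 to 18.0 CPM in control medium and 10.9 to 11.8 CPM in deprivation, and in Myc310 1.74 to 2.20 and 2.75 to 2.90 CPM. Of 6 fibroblast markers tested, 1 was called higher in each line, and lower calls numbered 1, 0, 2 and 3 over the lines, starting from MYAZ16.1e and Myc310 and ending with LM1-LM, with median log2 fold changes of -0.0036, 0.21, -0.41 and -0.54. The higher one was Col1a1, a collagen chain, with 1.59 to 2.56 at a level of at most 3.92 CPM in any library, and among the lower ones was Col3a1, with -0.87 in LM1 and -1.19 in LM1-LM. Both collagens were picked out after their values were seen. The summed mammary epithelium markers were higher after deprivation in all 4 lines with no overlap. In LM1 the sum went from 1105 to 1134 CPM up to 1383 to 1419 CPM. Most of this sum is Krt8 and Krt18, with medians of 967.8 and 284.0 CPM over all libraries. Of 6 such markers tested, 4, 3, 3 and 3 were called higher and 0, 0, 1 and 1 lower, in the same order of lines. Their median log2 fold changes were 0.19, 0.47, 0.37 and 0.35. The part of such cells in the results was not tested.

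In control medium, the question is how the lines differ before any deprivation. Over the 15 groups, Mt1 ranged from 142.8 ± 2.20 CPM (SD, n = 3) in MYAZ16.1e to 594.0 ± 12.6 CPM in deprived LM1-LM. In control medium alone its order was MYAZ16.1e, LM1 (169.3 ± 2.01), LM1-LM (187.0 ± 4.87), Myc310 (188.5 ± 4.32), MYAZ6.6g (195.1 ± 8.48), NDI1 (215.4 ± 4.30), LM2-LM (219.6 ± 3.26), LM2 (247.8 ± 8.77), MYAZ12.3i (249.4 ± 4.94), LM3-LM (264.1 ± 16.7) and LM3 (265.8 ± 4.38). Neighbours from LM1-LM to MYAZ6.6g, the pair of NDI1 and LM2-LM, and the neighbours from LM2 to LM3 overlapped. Mt2 ran from 384.3 ± 15.2 CPM in MYAZ16.1e to 876.0 ± 14.8 CPM in LM3-LM. LM2 and LM3 had 748.5 ± 31.0 and 752.6 ± 7.66 CPM of Mt2, against 440.5 ± 4.04 CPM in LM1, so LM1 stood apart from both by more than the spread of cultures, whereas the cultures of LM2 and LM3 overlapped.

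Slc30a1 had the widest relative range in control medium. It was at 4.19 ± 0.27 CPM (SD, n = 3) in the NDI1 line, 5.41 ± 0.52 in MYAZ12.3i, 8.56 ± 0.30 in LM2, 8.85 ± 0.18 in MYAZ6.6g, 9.47 ± 0.42 in LM3-LM, 11.3 ± 0.76 in MYAZ16.1e, 11.7 ± 0.78 in LM3, 11.8 ± 0.50 in LM2-LM, 15.9 ± 1.37 in Myc310, 16.5 ± 1.85 in LM1-LM and 16.5 ± 1.99 in LM1. Myc310, LM1-LM and LM1 overlapped, as did LM2 with MYAZ6.6g and the neighbours from MYAZ16.1e to LM2-LM. Slc39a10 was highest where Slc30a1 was lowest, at 127.1 ± 3.46 CPM in MYAZ12.3i and 125.3 ± 2.25 CPM in the NDI1 line, and it was lowest in Myc310 at 69.1 ± 3.11 CPM. In the other lines it lay between 75.9 ± 3.58 CPM in LM1 and 100.0 ± 3.07 CPM in LM2-LM. Slc39a14 ran from 203.3 ± 2.70 CPM in MYAZ16.1e to 331.7 ± 6.40 CPM in LM2-LM. Mtf1, Slc39a1 and Slc39a6 varied least, with control means of 26.7 to 33.6 CPM, 79.0 to 96.0 CPM and 80.5 to 106.8 CPM.

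**Figure D5:**
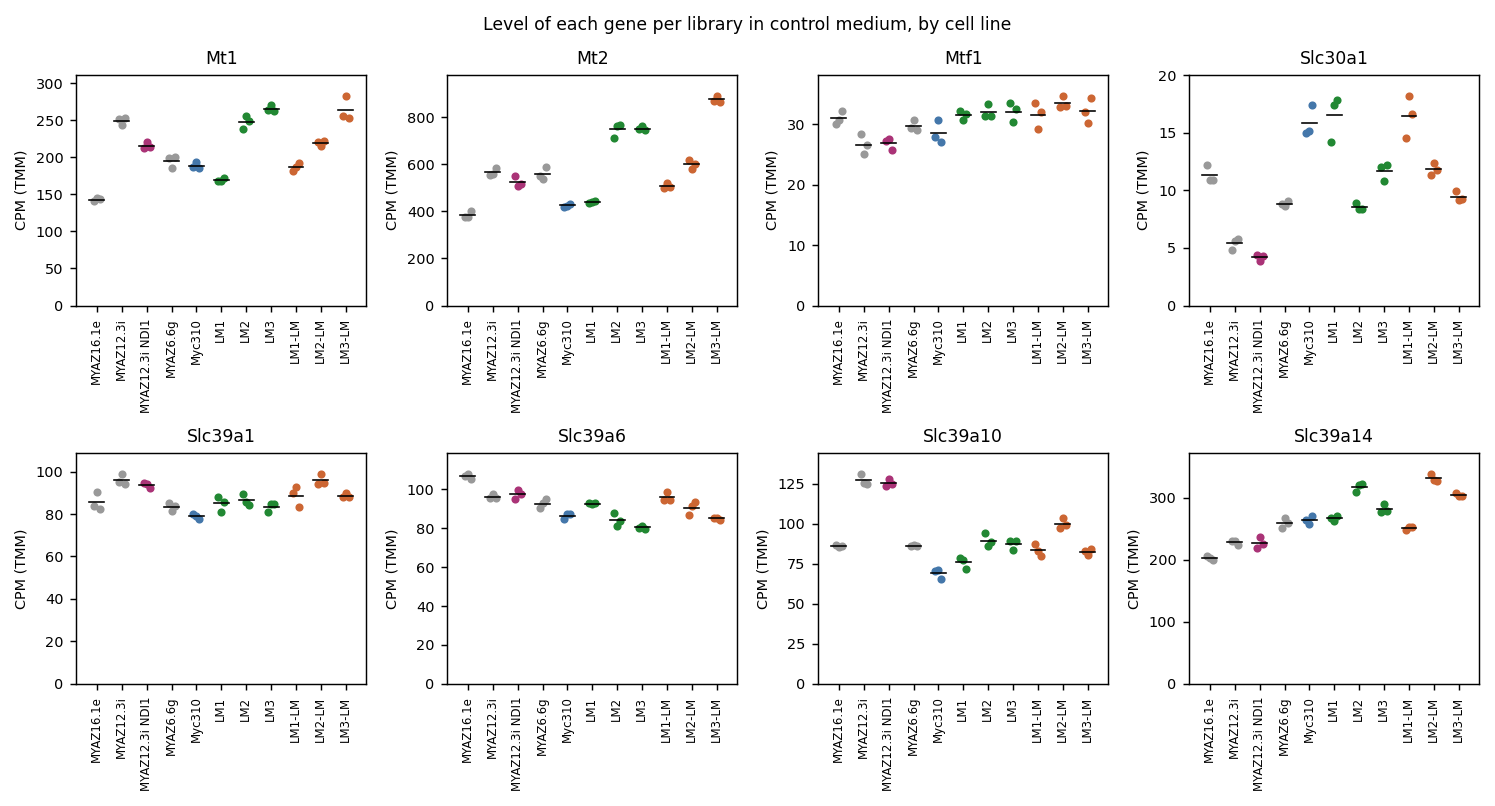
CPM of the 8 members in each control library of 11 lines (x axis); points are cultures, bars are means of 3, and colours mark MYAZ (grey), NDI1 (purple), Myc310 (blue), LM (green) and LM-LM lines (orange). Lines of 1 colour are spread widely for Mt1, Mt2 and Slc30a1, while Mtf1 stays between 25.0 and 34.8 CPM.

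The subtypes were compared with the MYAZ lines over 13795 genes, with the cultures as samples. Of the members, 4 were called in Myc310, 6 in the LM lines and 5 in the LM-LM lines, where 50.9%, 60.8% and 62.8% of all genes were called. Markers of cell types moved with these comparisons: of 6 fibroblast markers tested, 5, 4 and 5 were called lower and 0, 1 and 1 higher in Myc310, LM and LM-LM, with medians of -3.96, -2.67 and -3.01. Of 6 mammary epithelium markers, 2, 3 and 3 were called higher and 2 each lower, with medians of 0.33, 0.66 and 0.44. The summed epithelial markers ranged from 339.2 to 352.4 CPM in MYAZ12.3i up to 2424 to 2464 CPM in LM3-LM, and their part in the members' differences was not tested. With the counts of each line summed, so that lines were the samples, over 16017 genes, edgeR called 0 of the 8 members in each of the 3 comparisons (at an unadjusted p under 0.05, Slc39a14 alone in LM and in LM-LM, and none in Myc310), while 1429 (8.92%), 3788 (23.6%) and 4226 (26.4%) of all genes were called for Myc310, LM and LM-LM. Myc310 is then 1 sample against 3, assumed to vary like the other lines. The cultures alone gave Slc30a1 a log2 fold change of 0.89 ± 0.24 (SE, adjusted p = 0.00296, edgeR) in Myc310, 0.52 ± 0.18 (adjusted p = 0.0139) in LM and 0.54 ± 0.18 (adjusted p = 0.00995) in LM-LM. Slc39a14 was 0.33 ± 0.07 higher in LM (adjusted p = 1.33e-04) and 0.34 ± 0.07 higher in LM-LM (adjusted p = 7.32e-05), and Mt2 was 0.37 ± 0.15 and 0.38 ± 0.15 higher (adjusted p = 0.0344 and 0.0288). Slc39a6 was called lower in all 3, with log2 fold changes of -0.19, -0.20 and -0.14. Slc39a10 was called lower in Myc310 (-0.53 ± 0.13) and LM (-0.24 ± 0.09), and Mt1 was called in none of the 3. Mtf1 was called higher in LM (0.13, adjusted p = 0.0106) and LM-LM (0.14, adjusted p = 0.00754), and Slc39a1 was called lower in Myc310 (-0.17, adjusted p = 0.0111). Single lines carried several of these calls. Without MYAZ12.3i, the calls of Slc30a1, Slc39a10 and Mtf1 in LM were lost (adjusted p = 0.172, 0.695 and 0.136), as were those of Slc30a1 and Mtf1 in LM-LM and of Slc39a1 in Myc310, while Mt1 was called higher in LM and LM-LM (adjusted p = 0.00607 and 0.0126). Without LM1, Slc30a1 and Slc39a10 were not called in LM (adjusted p = 0.235 and 0.152) and Mt1 was (0.00673), and without LM1-LM, Slc30a1 was not called in LM-LM (0.168). Mt2 lost its call in LM without LM2, LM3 or MYAZ16.1e, and in LM-LM without LM3-LM or MYAZ16.1e (adjusted p between 0.224 and 0.503), and Slc39a6 lost its call in LM-LM without MYAZ16.1e (0.0577). Calls were gained by Slc39a10 in LM-LM without LM2-LM, MYAZ16.1e or MYAZ6.6g (adjusted p between 0.00844 and 0.0156) and also with at least 10 counts in every library, under DESeq2 and under upper-quartile scaling (0.0397, 0.0497 and 0.0476), by Slc39a1 in LM and Slc39a14 in Myc310 without MYAZ6.6g (0.0481 and 0.0130), and by Slc39a1 in LM-LM without MYAZ12.3i (0.0220). Mean log2 CPM per line was compared with two-sided exact permutation tests of 3 lines against 3, which cannot give a p under 0.1. Mtf1 reached 0.1 in LM and in LM-LM, as did Slc39a14 in LM, and the adjusted p over all 16 such tests lay between 0.457 and 0.6.

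The NDI1 line was set against MYAZ12.3i, its parent by name, over 12841 genes. Mt1 was lower with NDI1, at 215.4 ± 4.30 against 249.4 ± 4.94 CPM (SD, n = 3), a log2 fold change of -0.22 ± 0.03 (SE, adjusted p = 1.39e-04, edgeR). Mt2 was lower by less, at 525.9 ± 22.2 against 566.5 ± 16.0 CPM, a log2 fold change of -0.11 ± 0.03 (adjusted p = 0.0282). Slc30a1 had a log2 fold change of -0.37 ± 0.14 (adjusted p = 0.0708) and it was called when all control libraries entered the fit (adjusted p = 0.0194). The other 5 members were not called, with log2 differences between -0.039 and 0.016. The 2 calls among 8 members stand beside 17.4% of all genes, a share that was 11.3%, 11.3% and 9.53% without culture 1, 2 or 3 of MYAZ12.3i. The call of Mt2 was lost without culture 1 or 3 of MYAZ12.3i and without culture 2 or 3 of the NDI1 line (adjusted p between 0.0552 and 0.145).

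The genes whose levels ran most like those of the members were sought by Pearson's r of mean log2 CPM over the 15 groups, leaving out genes whose average log2 CPM was under 3, which kept 8962. For Mt1 they were Spty2d1 (r = 0.97), Osbpl8 (r = 0.97) and Btg1 (r = 0.96). For Mt2 they were Mt1 itself (r = 0.96), Efr3a (r = 0.94) and Lysmd3 (r = 0.94). For Slc30a1 they were Zscan25 (r = 0.98), Rab11fip2 (r = 0.97) and Gps2 (r = 0.97). Among the members, Slc30a1 and Slc39a10 had r = -0.91, Slc30a1 and Slc39a14 had r = 0.74, and Slc30a1 had r = 0.61 with Mt1 and r = 0.56 with Mt2. Slc39a14 ran closer to the metallothioneins, with r = 0.82 for Mt1 and r = 0.85 for Mt2. Slc39a1 had r = 0.88 with Slc39a10 and r = -0.83 with Slc30a1, and Mt1 had r = -0.83 with Slc39a10. The 15 groups include the 4 deprived ones, and they share 1 scaling and, for Myc310 and the lung lines, 1 founder, so these are descriptions with no test.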

How the data were processed

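Messenger RNA was measured from poly(A) libraries of 45 cultures. The authors aligned reads to GRCm38 with STAR and used RSEM to count them, and what they deposited are whole-number counts, 1 row per gene, that were not normalized. The library kit keeps strand, but the strand setting of the counting is not given in the sources used here. This bears on Mt2, Mtf1, Slc30a1 and Slc39a6, each of which overlaps a gene on the other strand, and on Mtf1 and Slc39a10, which overlap genes on their own. All columns of per-sample values were mapped to a line and medium by name.

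Computations used R 4.3.3, edgeR 4.0.16 and limma 3.58.1, with DESeq2 1.42.0 as an alternative. Genes were kept by filterByExpr, libraries were scaled with TMM, and the quasi-likelihood test of edgeR was applied at a Benjamini-Hochberg adjusted p of 0.05 over all genes tested. The deprivation fit held 24 libraries in 8 groups, the subtype fit 30 control libraries with subtype only, and the NDI1 fit 6 libraries. Standard errors are the log2 fold change over the square root of F. Mean log2 CPM used a prior count of 2. The fits were tested on simulated data.

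Every member is accounted for in each comparison. Further genes of the zinc and copper lists are named where they passed the test in all 4 lines in 1 direction with a log2 fold change of at least 1 in size in 1 line, and other names are said to have been chosen after their values were seen. The members and lists were chosen with earlier results of these data known. Alternatives were RLE and upper-quartile scaling, other filters on low counts, DESeq2, a replicate block, fits without single cultures or lines, the line compared alone, and counts summed per line. Same-numbered cultures did not vary together. Pairs of cultures of a group differed beyond counting noise (chi-square per degree of freedom from 2.29 to 7.17), so none was counted as 1 sample. The coding sequences, transcript lengths and positions are from GENCODE on GRCm38, and the windows before the start from RefSeq on GRCm38.p6.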

Additional observations from a re-analysis of the deposited data

Results flagged for a closer look

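The responses of 5 members to the loss of cysteine and cystine differed between MYAZ16.1e and another line by the interaction test in edgeR. Of the 8 members, 4, 5 and 5 were called for Myc310, LM1 and LM1-LM, beside 40.3%, 52.2% and 54.8% of all genes. Each is given as the difference of log2 fold changes, the other line minus MYAZ16.1e. Mt1 differed by 0.89 for Myc310, 1.35 for LM1 and 1.30 for LM1-LM. Mt2 differed by 0.74, 1.06 and 0.92 in the same lines. Slc39a10 differed by -1.51, -1.69 and -1.75. Slc39a1 differed by -0.18, -0.21 and -0.16. Mtf1 differed by 0.21 in LM1, a call lost in 12 of 18 alternatives, and by 0.27 in LM1-LM, a call lost in 3. The calls of Slc39a1 in Myc310 and LM1-LM were lost without single cultures, as given above. These 14 differences share the cultures of MYAZ16.1e, and their standard errors and adjusted p-values, in part as ranges, are given with the interaction test above.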

How the results depend on the processing

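The calls of Mt1, Mt2, Slc30a1, Slc39a10 and Slc39a14 after deprivation kept their direction and their side of the threshold in all 4 lines under all 13 alternatives run for each. Over these alternatives the log2 fold change of Mt1 in LM1 lay between 1.68 and 1.76, that of Slc30a1 in MYAZ16.1e between 1.24 and 1.32, and that of Slc39a10 in Myc310 between -2.63 and -2.51. Of all values of single members under alternatives, 1165 kept direction and side, 53 lost their call, 19 gained one and 27 changed sign, and the values that changed sign were not called in the fits reported above. Counts summed per line moved the genes called to 4226 in LM-LM, 3788 in LM and 1429 in Myc310, and the members called to 0 in each. With single cultures left out, the genes called for NDI1 ranged from 1243 to 2209 and the members called from 1 to 2. The members called for the difference of LM1-LM ranged from 3 to 5 of 8, beside 7014 to 7170 of all genes. In the fit reported above, 54.8% of all genes were called for that difference. Each such fit holds fewer samples, and the cause of these moves was not tested.

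Changes of sign came first from scaling and filters: the difference of Slc39a14 was -0.032 in LM1 and -0.025 in LM1-LM under upper-quartile scaling, and Slc39a6 after deprivation of LM1-LM was -0.0017 under DESeq2, -0.0012 under RLE and -0.063 under upper-quartile scaling. The difference of Slc39a6 was -0.0014 in LM1 with at least 10 counts in all libraries, and -0.065 in LM1 and -0.028 in LM1-LM under upper-quartile scaling. With single cultures left out, the values ranged from -0.12 to 0.00046 for the Mtf1 difference of Myc310, from -0.048 to 0.019 for Slc39a1 in MYAZ16.1e and from -0.0060 to 0.034 for the Slc39a6 difference of LM1. For NDI1 they ranged from -0.037 to 0.054 for Mtf1, from -0.040 to 0.00064 for Slc39a10, from -0.044 to 0.013 for Slc39a14 and from -0.0028 to 0.032 for Slc39a6. With single lines or Myc310 cultures left out, Mt1 ranged from -0.011 to 0.39 in LM-LM and from -0.24 to 0.15 in Myc310. Mtf1 ranged from -0.095 to 0.0099 in Myc310, Slc39a10 from -0.29 to 0.024 in LM-LM, and Slc39a1 from -0.015 to 0.090 in LM-LM or, in LM, from -0.094 to 0.011. The cause was not tested.

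Cultures with the same number did not vary together: 2 of 12 pairs had a correlation of deviations over 0.1, from -0.40 to 0.31, and 4 correlated best with their own number. A replicate block gave 7142, 8938, 9494 and 9661 genes called for deprivation in the order MYAZ16.1e, Myc310, LM1, LM1-LM, and 5, 7, 7 and 7 members, as without it.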

Other observations

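The level per kilobase of main transcript, as the lowest and the highest mean CPM of the 15 groups, was 260.2 to 1082 for Mt1 and 752.1 to 2638 for Mt2. It was 41.3 to 82.5 for Slc39a14, 29.5 to 40.6 for Slc39a1, 20.7 to 27.5 for Slc39a6 and 2.02 to 23.1 for Slc39a10. Mtf1 lay at 3.49 to 5.35 and Slc30a1 at 0.80 to 8.34. In the 11 control groups alone these were 3.49 to 4.40 and 0.80 to 3.15, under the other members, of which Slc39a10 came next at 12.6 to 23.1. The lengths are those of 1 annotated transcript per gene, and the isoforms used by the cells were not measured here.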
